A study of Danio rerio with 5 samples.

Results

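The lysosome gene set comprised 51 genes, read by 55 of the 15502 probe sets that were not controls and drawn from 8793 named genes. Members were picked by a rule on gene symbols, written with earlier results of these data known: cathepsins, legumain, membrane proteins of the lysosome, the vacuolar proton pump, enzymes of glycan and lipid breakdown, and granulins. Of the 51, 50 are protein-coding genes and 1, grnas, is a non-coding RNA gene that the symbol rule took in. All 51 had a value in every array.

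Lysosomes are acidic compartments in which proteins, lipids and sugar chains brought in by endocytosis, phagocytosis and autophagy are broken down. The vacuolar proton pump (V-ATPase) acidifies them, and cathepsins and the other hydrolases work at that low pH. The same pump also acidifies endosomes, secretory granules and the synaptic vesicles of neurons. Cathepsin-rich lysosomes are a known feature of macrophages, microglia and osteoclasts.

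The 5 arrays measured RNA of zebrafish larvae of strain AB, 7 days old, as 1 array of unirradiated controls, 1 array after 12 Gy and 3 arrays after 15 Gy. The irradiated larvae had received protons at 24 h of development, with a beam of 8 MeV/u at 7.5 Gy/min. Doses are in gray (Gy), a measure of the energy taken up per mass of tissue. Each array read a pool of 20 animals, so cell types were mixed in every sample. The design text describes 1 group of 60 embryos per dose, and the labels, which call the pools biological replicates, name no separate irradiations for the 15 Gy pools. The p-values therefore measure only the spread between these pools, which may be technical.

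Values are log2 intensities, on which a difference of 1 is a doubling. The median probe set lay between 5.95 and 6.03 in the 5 arrays. The control array stood apart from the irradiated ones: on the first principal component, which held 79.7% of the variance, it lay at −66.1 and the others between −4.32 and 49.2. RNA quality can be read from actin control probe sets at the 5′ and 3′ ends of the transcript. Their ratio was lowest for the control (0.0171), then 0.0350 for 15 Gy replicate 2 and 0.0354 for the 12 Gy array, and highest for 15 Gy replicates 3 (0.108) and 1 (0.129). The arrays stood in the same order on the first principal component as by this ratio. For GAPDH control probe sets the ratio was also lowest in the control (0.174) and highest in 15 Gy replicates 3 (0.228) and 1 (0.242). The part of RNA quality in the differences from the control was not tested. All comparisons with the control rest on that single array. In such bulk samples, fewer cells of a type and less RNA per cell cannot be told apart.

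Irradiated larvae had higher levels of most cathepsin transcripts and lower levels of nearly all proton pump transcripts than the control. At 15 Gy, 9 of 13 cathepsin genes were at least 1.5-fold above the control array in each of the 3 arrays, against 11.7% of all named genes. Of 15 pump genes, 11 were at least 1.5-fold below it in each, against 7.20% of all named genes. Median differences were 1.08 for the cathepsins and −0.83 for the pump, against 0.01 for all named genes. The remaining 23 members had a median in between, at 0.35, and ran from −0.79 to 1.92. The 12 Gy array showed medians of 0.83 for the cathepsins and −0.93 for the pump.

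Over the whole set, 29 members lay above the control in each 15 Gy array and 20 lay below it in each. The shares among all named genes were 41.0% above and 36.5% below, so position alone was common on these arrays. In all 4 irradiated arrays, 27 members lay above the control (all genes 35.8%) and 19 below it (all genes 32.7%). By distance, 14 members were at least 1.5-fold above the control in each 15 Gy array, or 27.5%, against 11.7% of all named genes. A further 12 members were at least 1.5-fold below it in each, or 23.5%, against 7.20% of all named genes. The 2-fold limit left 6 members above (all genes 5.09%) and 2 below (all genes 2.49%). The 6 were ctsk, ctsla, ctsc, ctss2.1, cd63 and lamp2, and the 2 were atp6v0cb and atp6v1b2. Without 15 Gy replicate 2 the 6 became 11, and after cyclic loess normalization the 2 became 4. These counts ask every 15 Gy array to pass, so for the same probe sets leaving an array out cannot lower them.

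No member passed the test over all probe sets in any comparison. In limma with Benjamini-Hochberg adjustment, 0 members reached 0.05 for 15 Gy against control, where their adjusted p ran from 0.167 to 0.839, and 0 of all 15502 probe sets did. At an unadjusted p under 0.05, 18 members were higher and 12 lower, or 35.3% and 23.5%, against 17.4% and 10.4% of all named genes. These 30 became 5 without 15 Gy replicate 3. The residual spread in this fit came from the 15 Gy arrays alone, and the control was assumed to vary as they did.

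**Figure D1:**
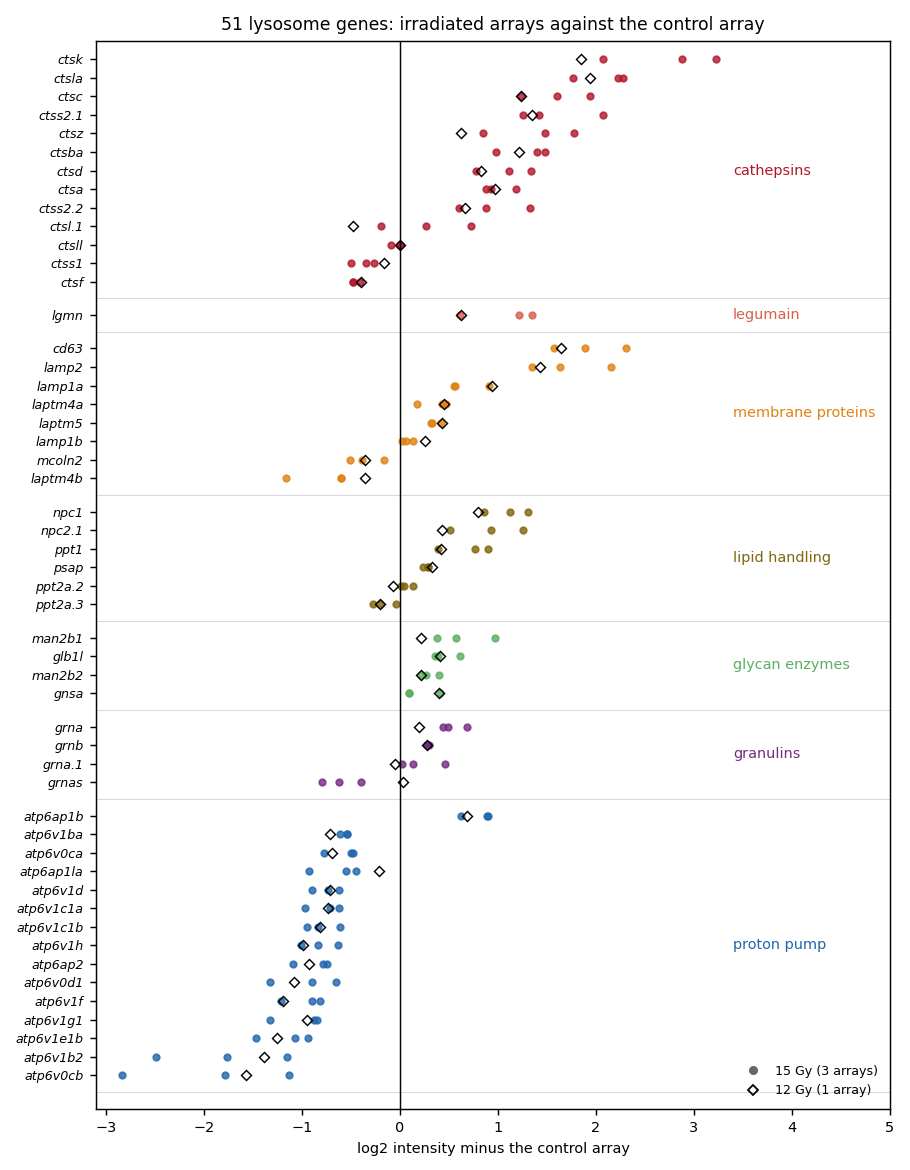
Difference in log2 intensity from the control array (x axis) for each of the 51 members (y axis), by role. Filled points are the 3 arrays at 15 Gy, open diamonds the 12 Gy array, and the vertical line is the control. Wholly to the right of it lie 9 of 13 cathepsins (all named genes 35.8%). Wholly to the left lie 14 of 15 pump genes (all named genes 32.7%).

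**Figure D2:**
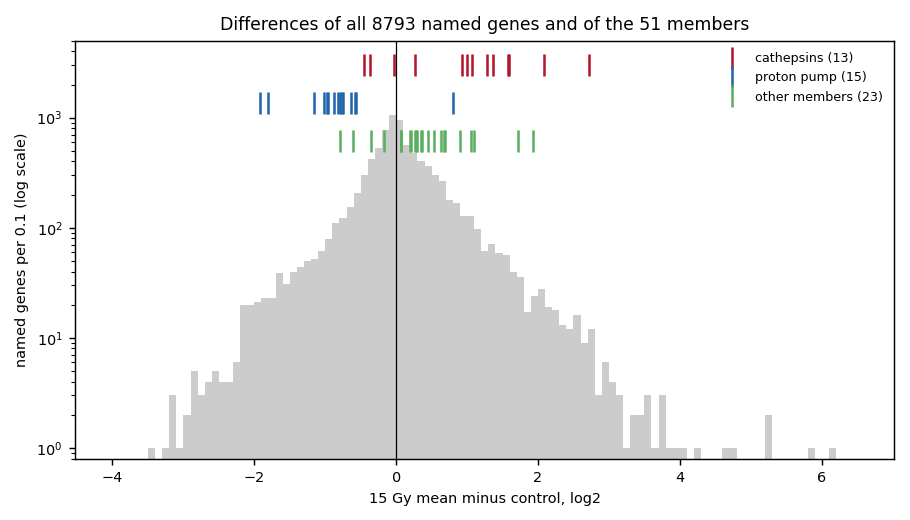
Number of named genes (y axis, log scale) by the 15 Gy mean minus the control in log2 units (x axis), for all 8793 named genes in grey, with a tick for each of 13 cathepsins, 15 pump genes and 23 other members. Tick height carries no value; pump ticks sit below 0 except for atp6ap1b at 0.80, and most cathepsin ticks sit near or above 1.

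Cathepsin K, encoded by ctsk, is a cysteine protease that degrades collagen and is best known from mammalian osteoclasts. The ctsk log2 intensity was 5.76 in the control, 7.61 at 12 Gy, and, at 15 Gy, 8.98 in replicate 1, 7.83 in replicate 2 and 8.64 in replicate 3, the order in which 15 Gy values are given throughout. Every irradiated array lay above the control, and the 12 Gy array lay below all 3 at 15 Gy. The mean at 15 Gy was 6.61-fold above the control (log2 2.73, SE 0.54; limma adjusted p = 0.167), the largest difference of any member.

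Cathepsin L, a lysosomal endopeptidase, is encoded here by ctsla and the related ctsl.1. For ctsla the values were 9.31 in the control, 11.26 at 12 Gy, and 11.59, 11.07 and 11.53 at 15 Gy. All irradiated arrays lay close together and well above the control, 4.25-fold at 15 Gy (log2 2.09, SE 0.27) and 3.85-fold at 12 Gy. The unadjusted p at 15 Gy, 0.00345, was the lowest of any member (limma adjusted p = 0.167). By contrast, ctsl.1 stood at 7.37 in the control, 6.89 at 12 Gy, and 8.10, 7.18 and 7.64 at 15 Gy. The 15 Gy arrays lay on both sides of the control for ctsl.1, and its difference of 0.27 was smaller than its SE of 0.43. A second probe set of ctsl.1 gave 0.15.

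Cathepsin C, encoded by ctsc, trims dipeptides and in mammals activates the granule proteases of leukocytes. Its log2 intensity was 5.26 in the control, 6.49 at 12 Gy, and 6.86, 6.49 and 7.20 at 15 Gy. All 4 irradiated arrays were above the control, by 3.01-fold at 15 Gy (SE 0.33 on the log2 scale; limma adjusted p = 0.167). The carboxypeptidase gene ctsz followed with 7.00 in the control, 7.62 at 12 Gy, and 8.77, 7.84 and 8.48 at 15 Gy. For ctsz the 12 Gy array was the lowest of the irradiated arrays, and the 15 Gy mean was 2.58-fold above the control (limma adjusted p = 0.188).

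The remaining cathepsins above the control ran from ctss2.2 to ctss2.1 in size. Cathepsin S, which in mammals cuts the chain that guards antigen-presenting molecules, is represented by the neighbouring genes ctss2.1 (2.99-fold at 15 Gy) and ctss2.2 (1.91-fold). A second probe set of ctss2.2 gave a log2 difference of 0.06, against 0.93 for the brighter probe set, and at 12 Gy the values were −0.12 and 0.66, so the size of the difference depends on the probe set read. Similar genes of this kind may also share signal on an array, which leaves the split between them uncertain. In the RefSeq table ctsk, ctss2.1 and ctss2.2 lie next to each other, with 0 protein-coding genes between them, and all 3 genes, by the probe set that stands for each, were above the control. Cathepsin B (ctsba, 2.44-fold), the aspartic protease cathepsin D (ctsd, 2.11-fold) and cathepsin A (ctsa, 0.98 on the log2 scale at 12 Gy), a serine carboxypeptidase that stabilises other lysosomal enzymes, were above the control in each irradiated array.

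A few cathepsins went the other way or gave little signal. The cysteine protease gene ctsf was lower than the control in each irradiated array, by 1.37-fold at 15 Gy (log2 −0.45, SE 0.08; limma adjusted p = 0.167). The probe sets of ctss1 and ctsll lay below the lower quartile of every array, as did those of grna, grnb and ppt2a.3. Differences of such dim probe sets, −0.37 for ctss1 and −0.03 for ctsll, say little about the genes. For ctsll, the control, the 12 Gy array and 15 Gy replicates 1 and 2 had the same value. A probe set shared by ctslb, a cathepsin gene of the zebrafish hatching gland, and 8 other gene symbols was not a member, and differed from the control by −0.19.

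Legumain, encoded by lgmn, is an asparagine-specific protease that processes cathepsins to their mature forms. Its log2 intensity was 8.34 in the control, 8.96 at 12 Gy, and 9.70, 8.96 and 9.56 at 15 Gy. The 12 Gy array and replicate 2 were level, with replicates 1 and 3 higher still, and the 15 Gy mean was 2.09-fold above the control (SE 0.36 on the log2 scale; limma adjusted p = 0.196).

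Membrane proteins of the lysosome split by gene. For cd63, a tetraspanin of late endosomes and lysosomes, the values were 9.86 in the control, 11.51 at 12 Gy, and 12.17, 11.44 and 11.75 at 15 Gy. For lamp2, a heavily glycosylated protein of the lysosomal membrane, they were 8.12, 9.55, and 10.28, 9.47 and 9.75. No irradiated array overlapped the control for either gene, and the 15 Gy means were 3.79-fold (cd63) and 3.27-fold (lamp2) above it, each with a limma adjusted p of 0.167. The related lamp1a was 1.60-fold above the control at 15 Gy and 1.92-fold at 12 Gy, whereas lamp1b differed by 0.07 (SE 0.08) at 15 Gy.

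The transporter-like proteins of the laptm family differed in direction. The laptm4b values were 8.59 in the control, 8.24 at 12 Gy, and 7.42, 7.99 and 7.99 at 15 Gy. Every irradiated array was below the control for this gene (1.73-fold at 15 Gy; limma adjusted p = 0.216), with a second probe set at −0.53 on the log2 scale. Both laptm4a (0.36) and laptm5 (0.35), the latter a leukocyte gene in mammals, were above the control in each irradiated array. The endolysosomal cation channel gene mcoln2 was lower in each (−0.35, SE 0.17).

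Among genes of lipid handling, npc1 and npc2.1 encode the membrane-bound and the soluble protein that pass cholesterol out of the lysosome. The npc1 values were 6.17 in the control, 6.97 at 12 Gy, and 7.48, 7.03 and 7.30 at 15 Gy. Those of npc2.1 were 7.19, 7.62, and 8.44, 7.70 and 8.11. Both genes were lowest in the control, next at 12 Gy and highest at 15 Gy, where npc1 was 2.14-fold (limma adjusted p = 0.167) and npc2.1 1.87-fold (adjusted p = 0.215) above the control. The thioesterase gene ppt1, whose protein strips palmitate from proteins, read 7.25 in the control, 7.67 at 12 Gy, and 8.15, 7.64 and 8.02 at 15 Gy, or 1.60-fold above the control. The saposin precursor gene psap was 1.21-fold above the control with little spread (log2 0.27, SE 0.07), and the thioesterase genes ppt2a.2 (0.06) and ppt2a.3 (−0.17) differed by less than 1.5-fold.

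All 4 members that break down sugar chains were above the control in each 15 Gy array (all genes 41.0%). None of them was so by 1.5-fold in each (all genes 11.7%). The lysosomal alpha-mannosidase gene man2b1 read 6.72 in the control, 6.93 at 12 Gy, and 7.68, 7.09 and 7.29 at 15 Gy (difference 0.64, SE 0.28). For glb1l, related to the lysosomal beta-galactosidase, the values were 5.60, 6.01, and 6.21, 5.99 and 5.96. The mannosidase gene man2b2 read 5.61, 5.83, and 6.01, 5.88 and 5.83. The 15 Gy arrays of man2b1 spread over more than the distance from the control to the lowest of them, while those of glb1l and man2b2 lay closer together. The sulfatase gene gnsa differed by 0.20 at 15 Gy (SE 0.18) and by 0.40 at 12 Gy.

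Granulins are growth factor-like peptides whose precursor, progranulin, is sorted to lysosomes. Both grna (3.76 in the control, 3.95 at 12 Gy, and 4.44, 4.25 and 4.20 at 15 Gy) and grnb (4.25, 4.53, and 4.53, 4.55 and 4.53) were dim in every array. They lay above the control by 0.54 and 0.29, with values below the lower quartile of every array. Of the grnb values at 15 Gy, 2 were identical. The short granulin gene grna.1 differed by 0.21 (SE 0.22) at 15 Gy and by −0.05 at 12 Gy. A brighter probe set shared by grna.1 and grna.2, not a member, gave 0.45 at 15 Gy and 0.73 at 12 Gy. In the RefSeq table grna.1 overlaps grnas, whose values were 7.60 in the control, 7.63 at 12 Gy, and 6.80, 7.20 and 6.97 at 15 Gy. The 12 Gy array matched the control for grnas, and all 3 arrays at 15 Gy lay below both (−0.61 against the control, SE 0.20; limma adjusted p = 0.189). Which strand each probe set of this pair reads is not given in the sources used here, so signal of the pair cannot be told apart with certainty.

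The V-ATPase consists of a cytosolic V1 part, which splits ATP, and a membrane V0 part, which carries the protons. All 9 V1 genes and all 3 V0 genes measured were below the control in each of the 4 irradiated arrays (all genes 32.7%). Medians at 15 Gy were −0.83 for V1 and −0.96 for V0. Among accessory proteins the picture was mixed: atp6ap2 (−0.87) and atp6ap1la (−0.64) were lower, and atp6ap1b (0.80) was higher.

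The largest pump differences were in atp6v0cb and atp6v1b2. A proteolipid of the V0 ring is encoded by atp6v0cb, which read 12.14 in the control, 10.57 at 12 Gy, and 9.30, 11.01 and 10.35 at 15 Gy. Subunit B of V1 is encoded by atp6v1b2, with 9.41, 8.02, and 6.92, 8.25 and 7.65. For both, replicate 1 was far below the other irradiated arrays and replicate 2 nearest to the control, so the 15 Gy SD was large (0.86 for atp6v0cb and 0.67 for atp6v1b2). Their means were 3.77-fold and 3.49-fold below the control (limma adjusted p = 0.226 for atp6v0cb and 0.196 for atp6v1b2).

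Their paralogs differed less and varied less. The other proteolipid gene, atp6v0ca, differed from the control by −0.59 on the log2 scale at 15 Gy (SD 0.16), and its second probe set gave −0.32. The other subunit B gene, atp6v1ba, was 1.48-fold below it (SD 0.04). Both lay below the control in each irradiated array, and the difference between paralogs was not tested.

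Stalk subunits E and G join the V1 head to the membrane part. For atp6v1e1b the values were 11.04 in the control, 9.78 at 12 Gy, and 9.57, 10.10 and 9.96 at 15 Gy. For atp6v1g1 they were 11.66, 10.71, and 10.33, 10.78 and 10.82. All irradiated arrays of both genes lay below the control, with less spread than for atp6v0cb and atp6v1b2, and the 15 Gy means were lower 2.23-fold for atp6v1e1b and 2.02-fold for atp6v1g1. The other V1 genes (atp6v1d, atp6v1c1a, atp6v1c1b, atp6v1h and atp6v1f) ran from −0.75 to −0.97 at 15 Gy, and the V0 gene atp6v0d1 was at −0.96.

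**Figure D3:**
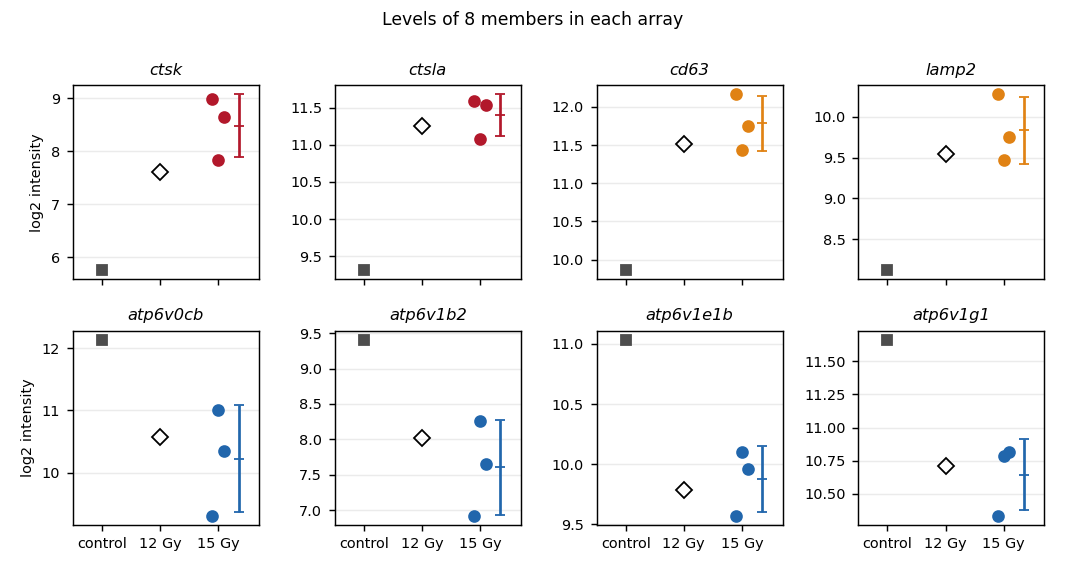
Log2 intensity (y axis, a separate range for each gene) in the control, 12 Gy and 15 Gy arrays for ctsk, ctsla, cd63, lamp2, atp6v0cb, atp6v1b2, atp6v1e1b and atp6v1g1. Points are single arrays and bars the mean ± SD of the 3 arrays at 15 Gy; the first 4 genes are lowest in the control and the last 4 highest.

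The 12 Gy comparison asked which members differed at the lower dose, with a single array on each side. At least 1.5-fold above the control were 15 members, or 29.4%, against 13.8% of all named genes, and 13 members, or 25.5%, were at least 1.5-fold below it, against 11.0%. In limma 0 members reached an adjusted p of 0.05, the lowest being 0.206, and 19 had an unadjusted p under 0.05 (9 higher, against 10.4% of all named genes, and 10 lower, against 7.94%). At least 2-fold higher were 7 members (all genes 6.41%) and lower 5 (all genes 4.53%). The 19 became 4 without 15 Gy replicate 3, since the spread comes from the 15 Gy arrays. The 5 largest differences were in ctsla (1.95), ctsk (1.85), cd63 (1.65), atp6v0cb (−1.57) and lamp2 (1.43). For laptm4b the 12 Gy difference was −0.35, against −0.79 at 15 Gy, and for lamp1a it was 0.94 against 0.68. Both comparisons use the same control array.

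Between the doses, members differed little. For 15 Gy against 12 Gy the members' median was 0.08, against 0.02 for all named genes, and it was 0.017 after another quantile normalization. No member was 1.5-fold higher in each 15 Gy array (all genes 1.36%) or lower in each (all genes 0.796%). In limma, by the probe set that stands for each gene, 0 members reached an adjusted p of 0.05, the lowest being 0.548. Second probe sets of atp6v0ca (0.53) and laptm4b (−0.46), not counted here, had an unadjusted limma p under 0.05. Among the probe sets counted, only that of grnas did (0.0434, lower at 15 Gy, against 3.51% of all named genes lower and 5.35% higher). This count of 1 became 5 without 15 Gy replicate 1 and 4 without replicate 2. The largest differences were in ctsk (0.87, SE 0.54), ctsl.1 (0.75), ctsz (0.74), grnas (−0.63) and npc2.1 (0.47). All 3 arrays at 15 Gy lay above the 12 Gy array in 10 members (all genes 31.3%) and below it in 9 (all genes 21.1%). From control to 12 Gy to the 15 Gy mean, the levels of 21 members were in ascending order (all genes 27.6%) and those of 9 in descending order (all genes 23.5%).

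Among the 15 Gy arrays, replicate 2 was the nearest to the control in 37 of 51 members, or 72.5%, against 64.4% of all named genes. Relative to the control, the median cathepsin difference was 1.34 for replicate 1, 0.85 for replicate 2 and 1.11 for replicate 3. The corresponding pump medians were −1.01, −0.63 and −0.83. The actin 5′ to 3′ ratio was highest in replicate 1 (0.129) and lowest in replicate 2 (0.0350) of these arrays, and its part in these differences was not tested. The SD of a member over the 15 Gy arrays had a median of 0.20, against 0.145 for all named genes, and ran from 0.01 for grnb to 0.86 for atp6v0cb.

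Most measured markers of immune cells were also higher in irradiated larvae. Of 30 listed macrophage and microglia markers, 16 were measured, and 1 of the 16, laptm5, is also a member. In each 15 Gy array 11 lay above the control (all genes 41.0%) and 3 below it (all genes 36.5%), with a list median of 0.27. The summed intensity of the 16, to which bright genes add most, was 1497 in the control, 4276 at 12 Gy and 3960 to 5736 at 15 Gy. The largest differences were in apoeb (6.13-fold higher at 15 Gy) and lgals3b (3.52-fold), which are not limited to these cells, and coro1a (2.45-fold). At least 1.5-fold from the control in each 15 Gy array were 6 markers above (all genes 11.7%) and 2 below (all genes 7.20%). The lowest difference in this list was −1.13 on the log2 scale. The leukocyte genes lcp1 and ptprc were 2.31-fold and 1.51-fold higher. The defining macrophage receptor gene csf1ra stayed at 4.55 in every array, below the lower quartile as was cd74b, and mpeg1.1 was not analysed here. Of 14 neutrophil markers, 9 were measured and 8 lay above the control in each 15 Gy array (all genes 41.0%). Their median log2 difference from the control was 1.02 at 15 Gy and 1.46 at 12 Gy. Their summed intensity, to which bright genes add most, was 619.8 in the control, 6917 at 12 Gy and 5624 to 11186 at 15 Gy. The list was led by the matrix protease genes mmp9 (71.8-fold) and mmp13a (56.3-fold), which other cells also make. Of 8 osteoclast markers 3 were measured, ctsk and mmp9 among them. The third, acp5a, differed by 0.10 with arrays on both sides of the control, unlike ctsk. The part of these cells in the cathepsin levels was not tested.

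Neuron and synapse genes, a list added after the pump values were seen, lay below the control as the pump genes did. Of 36 listed, 19 were measured, and all 19 were below the control in each 15 Gy array, with a median of −1.86; gad1b, slc32a1 and sypb were the farthest below (5.86-fold, 5.26-fold and 4.59-fold). Of all named genes 36.5% lay below the control in each, and 0 of the 19 had an unadjusted p under 0.05 in limma. In replicates 1, 2 and 3 the list median was −3.06, −1.11 and −1.57, and at 12 Gy −1.45. The summed intensity was 35182 in the control, 13359 at 12 Gy and 4897 to 16215 at 15 Gy. Replicate 1 was the lowest of the arrays by the list median. By the probe set that stands for each gene, it was also the lowest for every pump gene except atp6v1ba and atp6ap1b. A second probe set of atp6v0ca was lowest at 12 Gy (8.45), with 9.03 in replicate 1. The share of all named genes that were lowest in replicate 1 was not computed. The part of neuronal RNA in the pump levels was not tested.

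Markers of further cell types lay mostly above the control at 15 Gy, apart from the enterocyte genes. Ionocytes are skin cells of fish that move ions, some of them rich in V-ATPase. Of their 19 markers 8 were measured, 3 of them below the lower quartile of every array. In each 15 Gy array 7 lay above the control (all genes 41.0%), with a median of 0.34. At 12 Gy 5 lay above it and 3 below (all genes 4257 above and 4331 below of 8793). The part of ionocytes in the pump levels was not tested. Enterocyte genes had 12 of 19 measured, 4 above (all genes 41.0%) and 3 below (all genes 36.5%) in each 15 Gy array (median −0.15). Skin genes had 23 of 26 measured, 20 above (all genes 41.0%) and 2 below (all genes 36.5%) in each 15 Gy array. Their median was 1.11, led by anxa2a, krt18a.1 and s100a10b. At 12 Gy the skin median was 0.20, with 13 genes above the control and 10 below it (all genes 4257 above and 4331 below of 8793). Liver genes had 13 of 20 measured, 9 above and 3 below in each 15 Gy array (median 0.73, and 0.22 at 12 Gy). The hatching gland list had only 3 of 8 measured, 2 above and 1 below in each 15 Gy array.

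**Figure D4:**
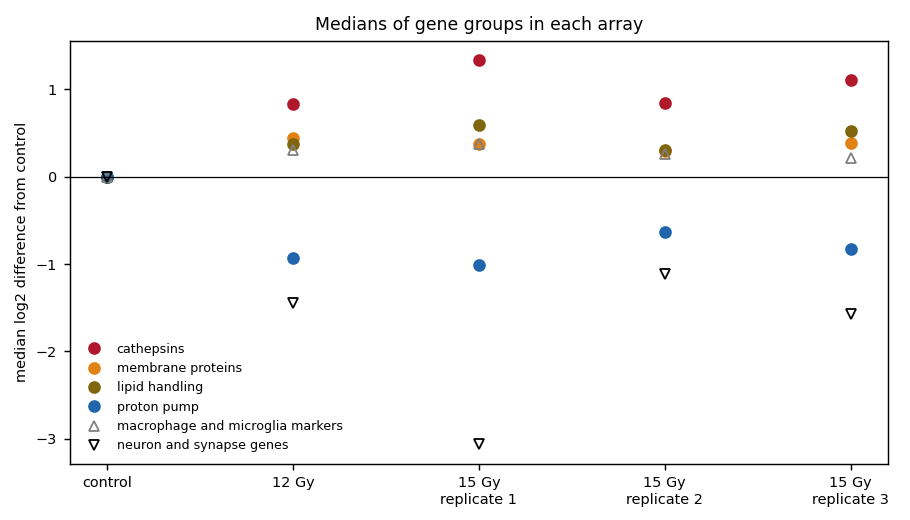
Median log2 difference from the control array (y axis) in each array (x axis) for the cathepsins, membrane proteins, lipid handling genes and proton pump (filled points), and for macrophage and microglia markers and neuron and synapse genes (open triangles). Cathepsin medians lie between 0.83 and 1.34 in the irradiated arrays; pump medians lie between −0.63 and −1.01, and neuron medians reach −3.06 in 15 Gy replicate 1.

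Other lysosome genes, outside the symbol rule, differed less as a whole. Of 171 listed, 86 were measured, with a median of 0.10 at 15 Gy. In each 15 Gy array 44 lay above the control (all genes 41.0%) and 20 below it (all genes 36.5%). At least 1.5-fold above it in each were 12 (all genes 11.7%) and below it 4 (all genes 7.20%). In limma 0 passed after adjustment, and 14 were higher (all genes 17.4%) and 8 lower (all genes 10.4%) at an unadjusted p under 0.05. The 1.5-fold and unadjusted counts of 86 are near the shares of all named genes. By position alone, more of the 86 lay above and fewer below than among all named genes. Of 20 other lysosomal enzymes 13 were above in each array, with the phospholipase gene pla2g15 (2.91-fold), the fucosidase gene fuca1.1 (2.36-fold) and the galactosylceramidase gene galcb (2.08-fold) the farthest from the control. Of 17 other membrane proteins 10 were above in each, led by cd68 (4.34-fold), a macrophage-rich member of the lamp family in mammals, and by the sialomucin gene cd164 (2.55-fold), while tmem9 was lower (1.65-fold).

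Genes that deliver cargo to lysosomes, 22 in number, had a median of 0.04. The AP-3 adaptor genes ap3m1 (2.07-fold) and ap3b1a (1.93-fold) were above the control and ap3s2 (1.97-fold) below it. The 8 genes of lysosomal transcription and mTOR signalling had a median of 0.03, with rragca at 0.44, tfe3a at 0.25 and mitfb at −0.14, none past 1.5-fold in each array. Autophagy genes, 17 in number, had a median of −0.02, with 6 above (all genes 41.0%) and 6 below (all genes 36.5%) in each 15 Gy array. Among these the autophagy receptor genes sqstm1 (3.45-fold) and optn (2.03-fold) were above the control and the kinase gene ulk1b (2.38-fold) was below it, each on the same side in all 3 arrays at 15 Gy. Of the 2 cystatins measured, inhibitors of cysteine cathepsins, cst14b.1 was higher (0.93) but dim, and cst3 was lower (−0.45).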

How the data were processed

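The authors deposited a linear intensity for each probe set in each array. The submitters' processing notes name RMA, a method that corrects background, equalises arrays by quantiles and summarises probes; no version is given in the sources used here. RMA usually gives log2 values, so that the linear values are RMA values turned back from log2 is an inference stated by no label. Each array had cRNA from 6 µg of total RNA, per the labels' protocols. Scanner files were not used here, and detection was not called. RMA can shrink differences of dim probe sets, and the number of arrays limits the precision.

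Intensities were turned to log2. The 115 control probe sets were left out. Names came from the platform table: a single symbol stood beside 10795 probe sets, several beside 135, and 4572 had no entry. All 55 member probe sets matched the RefSeq table of assembly GRCz12tu by Entrez identifier, with 0 symbols changed. That table was used only for names and neighbours. The brightest probe set on average stood for a gene, and 4 members had 2 probe sets. Equal values in 2 or more arrays occurred in 5 member probe sets, which can lower the estimated spread.

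A limma model (limma 3.58.1, R 4.3.3) estimated group means from the 5 arrays for 15502 probe sets, with two-sided tests, with Benjamini-Hochberg adjustment and a threshold of 0.05. The 15 Gy arrays alone gave the 2 residual degrees of freedom, to which eBayes added 1.20. The script was tested on simulated data. No batch is labelled, so none could be tested. Figures used matplotlib 3.10.9.

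Members and lists were chosen with earlier results of these data known. Per-array values are given for the 3 members of each role with the largest difference at 15 Gy, the 5 with the largest in the other comparisons, and the 3 brightest. Of each other list, up to 3 genes with the largest difference among those on 1 side of the control in every 15 Gy array were named, with mpeg1.1, csf1ra, ptprc and lcp1. Other genes named, cd74b and acp5a among them, and the list of neuron genes were chosen after values were seen. A part of the naming rule based on correlation was not reported, because 5 arrays are too few.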

Additional observations from a re-analysis of the deposited data

How the results depend on the processing

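Alternatives were another quantile normalization, cyclic loess, median centring, leaving out the dimmest 30% of probe sets, the mean of a gene's probe sets, an intensity trend in the prior, each 15 Gy replicate left out, and all 4 irradiated arrays as 1 group. Under every one of these, 0 members passed the adjusted threshold. Of 196 recomputed differences of the 22 members given array by array, 0 changed sign. Many of these could not change: the intensity trend and the removal of dim probe sets leave a gene's difference as it was. Averaging alters only genes with several probe sets. Most of the 22 were picked for large differences, and every alternative used the same control array, so this count says little about robustness. The cathepsin median stayed between 0.90 and 1.29 and the pump median between −0.97 and −0.74. The median of all members at 15 Gy was 0.15 after another quantile normalization, where that for 15 Gy against 12 Gy was 0.017. The members 2-fold below the control in each 15 Gy array numbered 4 after cyclic loess; the cause of these shifts was not tested. Leaving out a replicate gave 6 to 11 members 2-fold above the control. This count asks every 15 Gy array to pass, so for the same probe sets leaving an array out cannot lower it. The granulin median turned to −0.20 without the dimmest probe sets, because grna and grnb were no longer tested. The median of all named genes turned to −0.040 after median centring. Members at an unadjusted p under 0.05 numbered 5 to 36 at 15 Gy, 4 to 25 at 12 Gy and 1 to 5 between the doses. No paired analysis was possible because the control and 12 Gy groups hold only replicate 1, so the groups share fewer than 2 numbers.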
